A study of Mus musculus with 6 samples.

Results

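NF-kB is a family of transcription factors built as dimers of 5 related subunits, and it switches on genes of inflammation, adhesion and survival. The 10 genes described here are these 5 subunits (Rela, Relb, Rel, Nfkb1 and Nfkb2) and 5 regulators that restrain or shape the response (Nfkbia, Nfkbiz, Bcl3, Tnfaip3 and Zc3h12a). They were taken by symbol from a table of 23473 gene-symbol rows, and each of the 10 symbols matched 1 row. Both groups were adult male C57BL/6 mice, 8 to 9 weeks old and anesthetized with chloral hydrate. In the sham group (3 libraries) the neck arteries were exposed without inserting a filament. In the ischemia/reperfusion group (3 libraries, called reperfused below) a coated filament closed the middle cerebral artery for 1 h and was then withdrawn for 6 h of reperfusion, a model of ischemic stroke. The labels name the tissue as brain without a region or side, so tissue inside and outside the occluded territory cannot be told apart. The neuronal transcript Snap25 stood at 992 to 1283 CPM in every library, so neural tissue was present in all 6.

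In resting cells inhibitory IkB proteins, of which IkBα (Nfkbia) is the best known, hold NF-kB dimers in the cytoplasm. Signals from cytokine receptors and danger receptors activate the IKK kinase complex, which marks IkBα for destruction, and the freed dimers enter the nucleus. NF-kB also switches on several of its own inhibitors, and their transcripts are therefore commonly used as a record of recent NF-kB activity. In brain the pathway is found in microglia, endothelium, astrocytes and neurons, and whole tissue RNA does not separate these sources. A change in the number of cells of a type and a change of RNA per cell also cannot be told apart in such samples.

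The deposited counts of a library summed to between 45425867 and 49686109. CPM, the count of a row scaled to the size of its library, was computed after TMM scaling, whose factors lay between 0.969 and 1.03. The labels do not say whether each library is another animal, and p-values therefore reflect the spread between these libraries, which may be technical. Sham replicate 2 stood apart in stimulus-induced genes. The median of 12 immediate early genes was 0.84 above the sham mean there on the log2 scale, whereas sham replicates 1 and 3 stood at −0.31 and −0.46 and the reperfused libraries at 1.05 to 1.69. All 12 had a fold change above 0 with a median of 1.13 on the log2 scale, 6 of them at an unadjusted p under 0.05 (8.73% of all rows were higher at that level) and none past an adjusted p of 0.05 with edgeR. DESeq2 called Jun, Egr2, Arc and Atf3. Without sham replicate 2 all 12 had an unadjusted p under 0.05 (7.08% of rows), the median was 1.81, and Junb, Egr2 and Atf3 passed an adjusted p of 0.05 (edgeR). Leaving out sham replicate 1 or 3, or reperfused replicate 2, left 4 higher (5.89%, 6.57% and 7.93% of rows). It was 5 without reperfused replicate 3 (6.08%), with a median of 0.85, and 6 without reperfused replicate 1 (11.1%). Egr2 and Arc passed an adjusted p of 0.05 without reperfused replicate 1, where 1057 of 40919 rows did (edgeR). Jun and Arc passed without reperfused replicate 2, where 0.0780% of rows were called higher. Results that rest on sham replicate 2 are given with and without it. It was singled out after its values were seen, so shares over all rows are not a like background for counts without it.

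The promoter windows of the members are shown because NF-kB acts on several of these genes itself. RefSeq (GRCm38.p6) gave a window from 250 bases before to 50 bases from the transcription start on for 7 of the 10 genes, and none was used for Relb, Nfkb1 and Nfkbiz. The kB consensus, the 10-letter NF-kB binding motif, was searched on both strands, with overlapping matches merged into 1 site. It was found in 5 of the 7 genes, Rel, Nfkb2, Nfkbia, Bcl3 and Tnfaip3, and in neither Rela nor Zc3h12a. Over all genes with a window 9.55% held it, and over all 32851 windows 8.46%. Such a match is a description of letters and not a site of binding. Capitals mark the kB consensus, and each sequence is the sense strand of its gene.
Nfkbia, chr12:55492598-55492897, minus strand: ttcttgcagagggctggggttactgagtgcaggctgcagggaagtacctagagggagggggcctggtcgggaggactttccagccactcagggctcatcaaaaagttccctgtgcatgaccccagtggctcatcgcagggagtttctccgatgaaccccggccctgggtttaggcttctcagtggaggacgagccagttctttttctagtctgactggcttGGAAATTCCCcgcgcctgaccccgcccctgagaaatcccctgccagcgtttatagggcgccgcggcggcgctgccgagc
Tnfaip3, chr10:19015361-19015660, minus strand: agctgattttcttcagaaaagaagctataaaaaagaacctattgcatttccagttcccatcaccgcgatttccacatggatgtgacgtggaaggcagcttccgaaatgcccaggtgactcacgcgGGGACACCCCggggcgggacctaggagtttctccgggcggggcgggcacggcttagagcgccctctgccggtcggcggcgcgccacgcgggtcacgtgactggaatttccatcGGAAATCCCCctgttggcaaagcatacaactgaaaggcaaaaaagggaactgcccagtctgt
Rel, chr11:23770920-23771219, minus strand: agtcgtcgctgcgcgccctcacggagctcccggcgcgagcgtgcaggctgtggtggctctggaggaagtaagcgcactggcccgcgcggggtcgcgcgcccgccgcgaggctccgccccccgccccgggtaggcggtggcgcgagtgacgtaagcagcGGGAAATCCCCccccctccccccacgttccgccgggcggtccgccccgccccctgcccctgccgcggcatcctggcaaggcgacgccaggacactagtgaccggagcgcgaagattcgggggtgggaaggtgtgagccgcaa
Zc3h12a, chr4:125127832-125128131, minus strand, with no match: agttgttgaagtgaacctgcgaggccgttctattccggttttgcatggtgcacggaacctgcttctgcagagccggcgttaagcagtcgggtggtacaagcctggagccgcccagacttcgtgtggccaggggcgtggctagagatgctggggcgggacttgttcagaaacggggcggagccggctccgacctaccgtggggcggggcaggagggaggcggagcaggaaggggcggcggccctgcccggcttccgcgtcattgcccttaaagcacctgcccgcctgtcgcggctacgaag

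The Nfkbia match began 29 bases before the start. The Tnfaip3 window held 2 sites, which began 125 and 12 bases before the start, and the window of its second start held none. In Rel the merged site began 92 bases before the start. Nfkb2 had 3 windows. The first held GGGAATTCCCC from 39 bases before the start and GGGGCTTTCC from 11 bases before it, and the letters GGGACTTTCC lie in the stretch that its other windows share. Bcl3 held GGGAAGTCCC just after its start. The map of matches by distance shows sites that began within 39 bases of a start in Nfkb2, Nfkbia, Bcl3 and Tnfaip3.

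**Figure D1:**
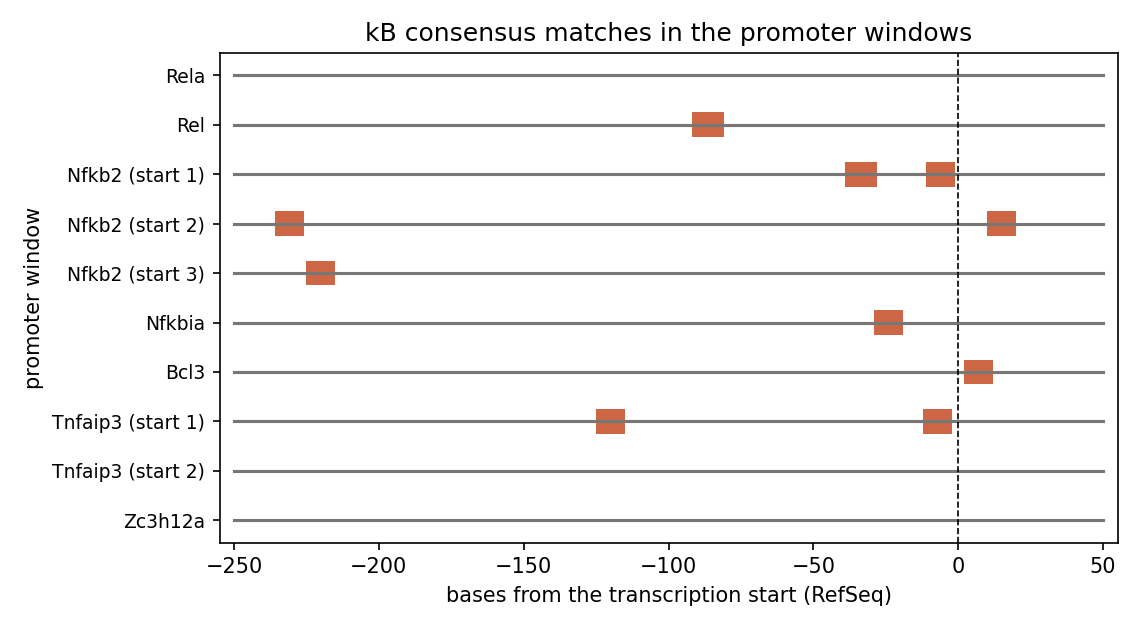
Matches to the kB consensus (bars) in each promoter window, placed by distance in bases from the RefSeq transcription start (dashed line); lines span the searched window. Windows of Rela, Zc3h12a and the second start of Tnfaip3 held no match, and the first window of Nfkb2 held 2.

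After ischemia and reperfusion the fold change was above 0 in 9 of the 10 members. Their median on the log2 scale was 0.40, against 0.02 over all 40170 rows tested, of which 53.1% were above 0. Over the 16642 tested rows with a gene symbol the median was −0.04 and 44.2% were above 0. No member passed an adjusted p of 0.05 (edgeR quasi-likelihood test, Benjamini-Hochberg over all rows), where 0.00249% of rows did. None passed with DESeq2 (1.80% of rows) or limma-voom (0.00996%) either. At an unadjusted p under 0.05, 3 members were higher (Rel, Nfkbiz and Zc3h12a) and 0 lower, where 8.73% of all rows were higher and 6.90% lower. Of the 16642 gene-symbol rows 1064 were higher and 1449 lower at that level (edgeR). In Nfkbiz and Zc3h12a every reperfused library was above every sham library, which held for 10.8% of all rows and 7.34% of gene-symbol rows. All 10 members passed the filter on low counts. The spread of single libraries behind these values is shown in the plot of members by library.

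**Figure D2:**
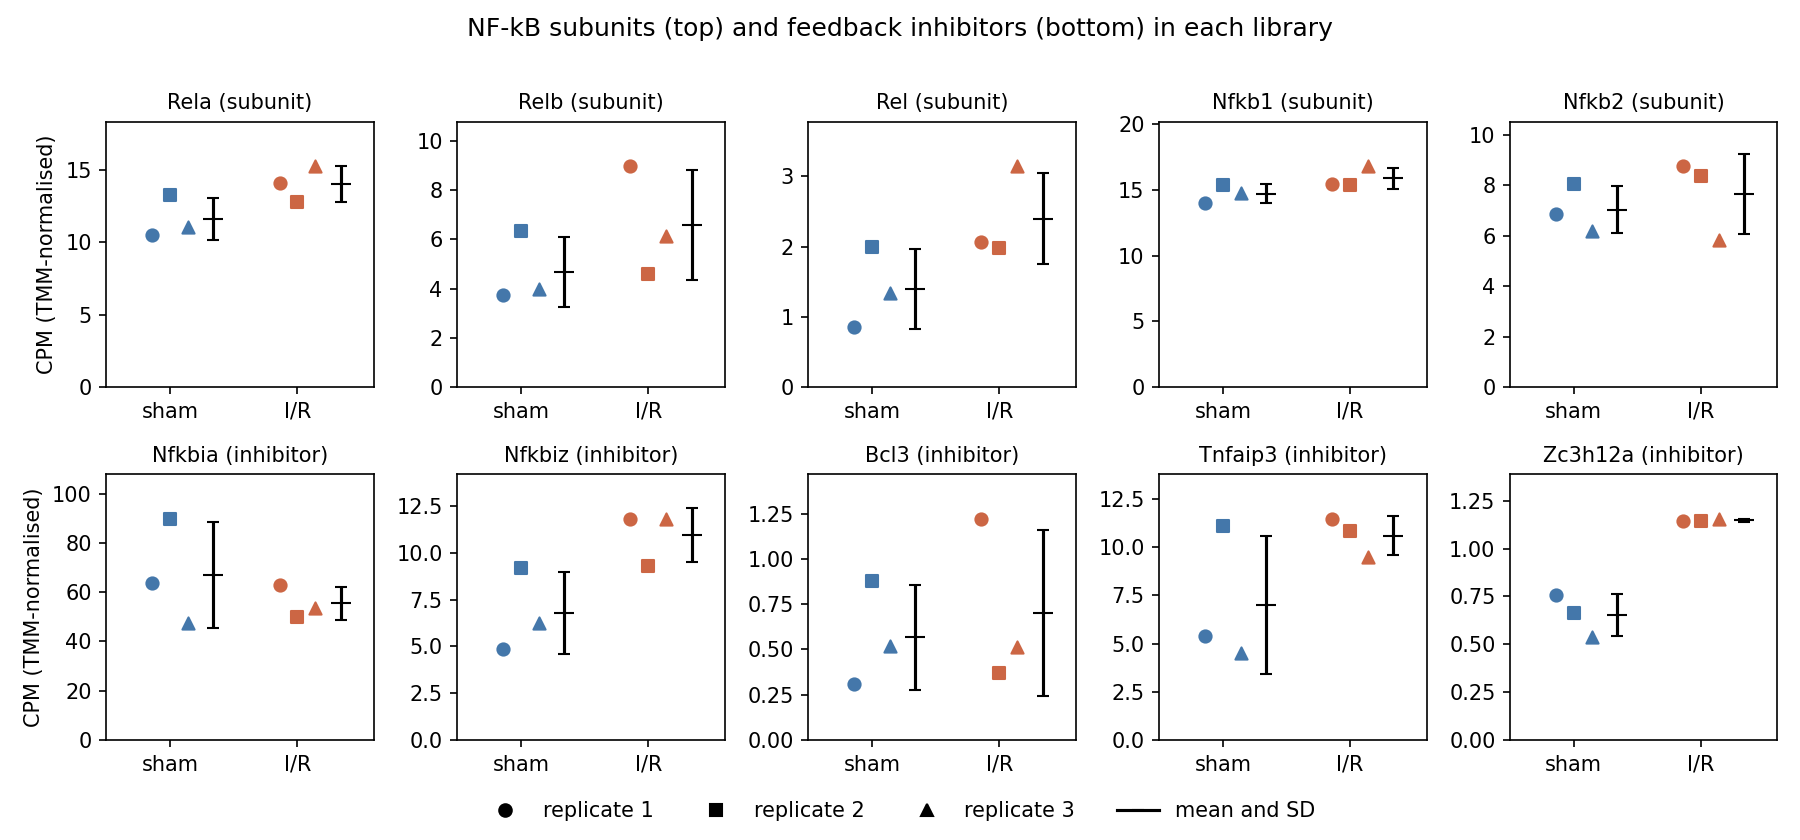
CPM (linear axis from 0) of each member in the 3 sham and 3 ischemia/reperfusion (I/R) libraries; symbols mark the replicate number and bars the mean and SD. Sham replicate 2 (squares) is the highest sham library in 9 of 10 genes, and the groups are apart in Nfkbiz and Zc3h12a.

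The 5 subunits each had a positive log2 fold change, from 0.11 to 0.78 with a median of 0.27. Per length, Rela and Nfkb1 were the most abundant in sham, at 4.19 ± 0.488 and 3.50 ± 0.145 RPKM (SD, n = 3). Nfkb2 and Relb followed at 2.09 ± 0.256 and 2.09 ± 0.610 RPKM, and Rel was lowest at 0.530 ± 0.211 RPKM. Nfkb2 and Relb did not differ beyond their spread. Rela and Nfkb1 were apart in each sham library, with Rela at 33.2 to 34.3% and Nfkb1 at 25.4 to 30.2% of the summed subunit RPKM. The summed subunit RPKM was 12.4 ± 1.63 in sham against 15.6 ± 1.55 in the reperfused group (SD, n = 3 each). Sham replicate 2 reached 14.3 and lay above reperfused replicate 2 at 13.9, so the groups overlapped. The share of Rela in the sum was 33.8 ± 0.558% and 33.9 ± 2.42%, and that of Rel 4.18 ± 1.17% and 6.09 ± 1.58%.

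Rel encodes c-Rel, a subunit best known from lymphoid cells, and its row lies on chromosome 11 from 23741729 to 23770970 (mm10, minus strand). Sham replicates 1, 2 and 3 held 42, 93 and 65 counts and the reperfused replicates 103, 92 and 147. In CPM this came to 0.859, 1.99 and 1.34 against 2.06, 1.99 and 3.15. Sham replicate 2 stood at the level of the lowest reperfused library, and the other sham libraries lay below all 3. The fitted log2 difference of Rel was 0.78 ± 0.31 (SE), with an unadjusted p of 0.0270 and an adjusted p of 0.270 (edgeR). Its value moved with single libraries. Without sham replicate 2 it stood at 1.12, with an unadjusted p of 0.00506 and an adjusted p of 0.284 (edgeR). It was 0.52 without sham replicate 1, 0.74 without sham replicate 3 and 0.53 without reperfused replicate 3, and the edgeR unadjusted p was then 0.113, 0.0708 and 0.134.

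Relb encodes the partner of p52 in the noncanonical pathway, and its row lies on chromosome 7 from 19606222 to 19629438 (mm10, minus strand). It had 3.74, 6.33 and 3.99 CPM in sham replicates 1, 2 and 3 and 8.98, 4.60 and 6.15 CPM in the reperfused group. Reperfused replicate 1 was highest and both other libraries of that group lay below sham replicate 2. For Relb the log2 fold change of 0.49 ± 0.27 (SE) had an adjusted p of 0.409 (edgeR). It was 0.76 without sham replicate 2 and 0.19 without reperfused replicate 1.

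Rela encodes p65, the main activating subunit, and its row lies on chromosome 19 from 5637490 to 5648130 (mm10, plus strand). It had 10.5, 13.3 and 11.0 CPM in sham against 14.1, 12.7 and 15.2 CPM in the reperfused group. Only sham replicate 2 and reperfused replicate 2 crossed. For Rela the log2 fold change was 0.27 ± 0.13 (SE) with an adjusted p of 0.350 (edgeR). A cDNA clone row on the opposite strand, fantom3_F630112B04, overlaps the end of the Rela row by 1825 bases and held 326, 343 and 307 counts in sham and 412, 354 and 419 in the reperfused group. Its log2 fold change was 0.29 ± 0.14 (SE; edgeR adjusted p = 0.341). No source used here says whether the counting used strand, so reads of the overlap cannot be assigned to either row alone.

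Nfkb1 and Nfkb2 encode p105 and p100, which are cut to the DNA-binding subunits p50 and p52. Nfkb1, on chromosome 3 from 135584655 to 135691547 (mm10, minus strand), varied least, with 14.0, 15.4 and 14.8 CPM in sham against 15.5, 15.4 and 16.8 CPM in the reperfused group. Its log2 fold change was 0.11 ± 0.11 (SE; edgeR adjusted p = 0.663). Nfkb2, on chromosome 19 from 46304737 to 46312090 (mm10, plus strand), had 6.88, 8.04 and 6.18 CPM in sham against 8.76, 8.35 and 5.85 CPM in the reperfused group. Reperfused replicate 3 was the lowest of all 6 libraries, and the log2 fold change was 0.12 ± 0.18 (SE; edgeR adjusted p = 0.770). That value ranged from 0.0062 without reperfused replicate 1 to 0.28 without reperfused replicate 3, with 0.03 without sham replicate 3, 0.05 without reperfused replicate 2 and 0.23 without sham replicate 2. For neither gene was a difference detectable beyond the spread of the libraries.

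The Nfkb1 row also spans 4 cDNA clone rows on its own strand, each well inside the gene. The 2 with more reads, fantom3_9930016G07 and fantom3_C130067K17, had 1.38 ± 0.115 and 1.09 ± 0.203 CPM in sham against 1.39 ± 0.318 and 1.26 ± 0.280 CPM in the reperfused group (SD, n = 3 each). The other two were sparse. fantom3_6720466E18 held 7, 24 and 13 counts in sham and 23, 27 and 38 in the reperfused group, a log2 fold change of 1.00 ± 0.47 (SE; edgeR adjusted p = 0.330). fantom3_A230052C16 held 5, 13 and 5 and 16, 24 and 10 counts, a log2 fold change of 1.11 ± 0.56 (SE; edgeR adjusted p = 0.357). In all 4 the groups overlapped.

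The 5 feedback inhibitors and regulators had a median log2 fold change of 0.60, with 4 positive and 1 negative, from −0.27 to 0.81. The median over the subunits was 0.27, and the difference between these 2 sets of 5 genes was not tested. Per length, Nfkbia was far above all other members at 41.5 ± 12.8 RPKM in sham. Nfkbiz and Tnfaip3 had 1.71 ± 0.535 and 1.49 ± 0.740 RPKM, which did not differ beyond their spread. Bcl3 and Zc3h12a were lowest, at 0.303 ± 0.151 and 0.228 ± 0.0379 RPKM, and also did not differ beyond their spread (SD, n = 3 each).

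Zc3h12a encodes Regnase-1, an enzyme that cuts cytokine messenger RNAs, and its row lies on chromosome 4 from 125118414 to 125127881 (mm10, minus strand). Its counts were 37, 31 and 26 in sham against 57, 53 and 54 in the reperfused group. In CPM these were 0.757, 0.665 and 0.537 against 1.14, 1.14 and 1.16, so that the groups were apart and sham replicate 2 was not the highest sham library. The fitted log2 difference of Zc3h12a was 0.81 ± 0.27 (SE), with an unadjusted p of 0.0113 and an adjusted p of 0.218 (edgeR). It ranged from 0.68 to 0.93 when any 1 library was left out. The SD between reperfused libraries, 0.00761 CPM, was below the 0.155 CPM that counting error alone gives at this depth. The close agreement of these 3 libraries therefore says little about the true spread.

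Nfkbiz encodes IkBζ, an inducible nuclear IkB protein that NF-kB needs to switch on a second set of target genes. Its row lies on chromosome 16 from 55811377 to 55838641 (mm10, minus strand). It had 4.87, 9.16 and 6.26 CPM in sham against 11.8, 9.30 and 11.8 CPM in the reperfused group. The groups were apart, but sham replicate 2 nearly reached reperfused replicate 2. The fitted log2 difference of Nfkbiz was 0.70 ± 0.21 (SE), with an unadjusted p of 0.00710 and an adjusted p of 0.199 (edgeR). The adjusted p was 0.0693 with DESeq2. Without sham replicate 2 the log2 fold change was 0.98, with an adjusted p of 0.147 (edgeR).

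Tnfaip3 encodes A20, a ubiquitin-editing enzyme that shuts off signalling to IKK, and its row lies on chromosome 10 from 19000910 to 19015410 (mm10, minus strand). It had 5.40, 11.1 and 4.53 CPM in sham against 11.5, 10.8 and 9.49 CPM in the reperfused group. The 3 reperfused libraries lay close together, while sham replicate 2 was 2.45 times the lowest sham library and fell among them. The log2 fold change of 0.60 ± 0.31 (SE) had an adjusted p of 0.399 (edgeR). Without sham replicate 2 it was 1.09, with an unadjusted p of 7.03e-05 and an adjusted p of 0.0725 (edgeR), and without sham replicate 3 it was 0.36. With all libraries the unadjusted p was 0.0947.

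Nfkbia, the IkBα gene on chromosome 12 from 55489409 to 55492647 (mm10, minus strand), was the 1 member with a negative fold change. It had 63.5, 89.8 and 47.4 CPM in sham against 62.9, 49.8 and 53.5 CPM in the reperfused group. The reperfused libraries all lay within the range of the sham libraries, whose highest was 1.90 times the lowest. The log2 fold change was −0.27 ± 0.22 (SE; edgeR adjusted p = 0.578). It was −0.0035 without sham replicate 2 and −0.48 without sham replicate 3, where the unadjusted p was 0.0141 and the adjusted p 0.373 (edgeR), so its size rested on single sham libraries. The Mir1198 row on the opposite strand has a length of 62 bases, and its outer coordinates run 1898 bases into Nfkbia. Where its counted bases lie within those coordinates was not determined. The Mir1198 row held 42, 41 and 30 counts in sham against 30, 20 and 33 in the reperfused group. Nfkbia, with a row length of 1579 bases, held 2292 to 4187.

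Bcl3 encodes a nuclear IkB protein that acts with p50 and p52 dimers, and its row lies on chromosome 7 from 19808462 to 19822755 (mm10, minus strand). Its counts were 15, 41 and 25 in sham against 61, 17 and 24 in the reperfused group, or 0.307, 0.879 and 0.517 CPM and 1.22, 0.367 and 0.514 CPM. The groups overlapped widely, and 1 library in each group held most of the counts. For Bcl3 the log2 fold change of 0.31 ± 0.50 (SE; edgeR adjusted p = 0.795) became −0.37 without reperfused replicate 1. No direction can be given for Bcl3.

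Across the members, sham replicate 2 was the highest sham library in 9 of 10, where 36.1% of all rows were highest in that library. Every reperfused library lay above sham replicates 1 and 3 in 7 members, against 16.3% of all rows. Sham replicate 2 was set aside here after it was seen to be highest in 9 members, which by itself favours such a count. The shares over all rows, also in the fit without it, are therefore not a like background, and the excess was not tested. Without sham replicate 2, 6 members had an unadjusted p under 0.05, all higher, namely Rela, Relb, Rel, Nfkbiz, Tnfaip3 and Zc3h12a, where 7.08% of rows were higher at that level (edgeR). None of them passed an adjusted p of 0.05 there either, with 0.0799% of rows called higher. Within the reperfused group, replicate 2 was the lowest library in 7 members and the highest in 0, and without it 5 members had an unadjusted p under 0.05, all higher, where 7.93% of rows were. None of these passed an adjusted p of 0.05 (0.0780% of rows called higher). Other libraries lowered the count. Without sham replicate 1, or without reperfused replicate 3, only Nfkbiz and Zc3h12a were higher at an unadjusted p under 0.05 (5.89% and 6.08% of rows, edgeR). Without sham replicate 3 the same 2 genes were higher (6.57% of rows) and Nfkbia was lower (5.30% of rows). Without reperfused replicate 1 the 3 genes Rel, Nfkbiz and Zc3h12a were higher (11.1% of rows). The plot of fold changes shows how far each value moved.

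**Figure D3:**
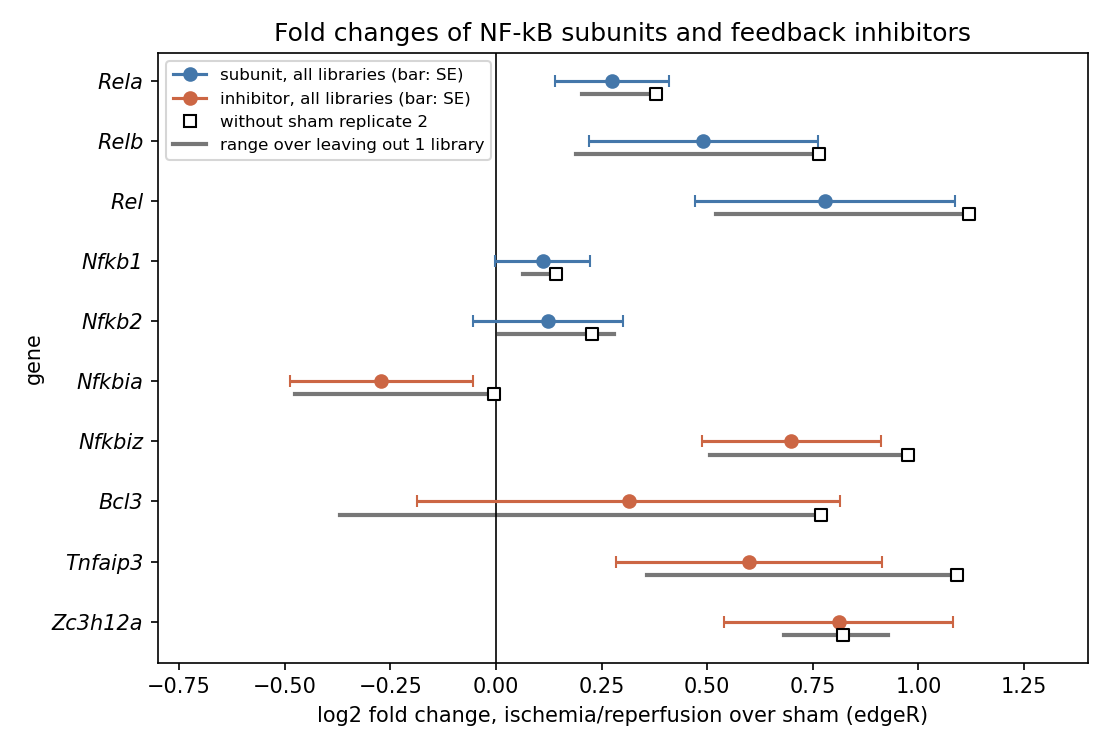
Log2 fold change of each member, ischemia/reperfusion over sham (edgeR), for subunits and inhibitors (filled circles, bars are SE), with the range over leaving out each library in turn (grey) and the value without sham replicate 2 (open squares). The square lies at or near the upper end of the range in most genes, at 1.09 for Tnfaip3 against 0.60 with all libraries, and near 0 for Nfkbia.

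The authors' deposited table listed 7 of the 10 members with a q-value under 0.05, where 24.5% of its rows had one. Of these, 6 were higher in the authors' deposited table (Rela, Relb, Rel, Nfkbiz, Tnfaip3 and Zc3h12a), where 14.7% of its rows were. Its smallest q-value among the members was 9.38e-13, for Nfkbiz. The authors' deposited table also listed Nfkbia as lower, with a log2 fold change of −0.21 and a q-value of 1.03e-06, although its 2 groups of libraries overlapped as described above. No source used here names the test behind these q-values.

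Around the members, the other genes of the pathway were read by role. Of the other IkB proteins and the IKK kinases with the kinases that activate them, 14 of 14 were tested, and at an unadjusted p under 0.05, 2 were higher and 1 lower, beside 8.73% and 6.90% of all rows. None passed an adjusted p of 0.05 with edgeR, DESeq2 called Map3k14, and the median log2 fold change was 0.03. Nfkbid, another inducible nuclear IkB protein, had 35, 57 and 45 counts in sham and 103, 68 and 76 in the reperfused group. All 3 reperfused libraries were above sham, with a log2 fold change of 0.85 ± 0.27 (SE; edgeR adjusted p = 0.207). Map3k14, the kinase NIK that drives the noncanonical pathway, had 3.27, 4.76 and 3.49 CPM in sham against 11.0, 4.51 and 6.57 CPM in the reperfused group. Reperfused replicate 1 stood far above the rest, and the log2 fold change was 0.94 ± 0.31 (SE) with an adjusted p of 0.231 (edgeR) and 0.0473 (DESeq2).

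Ikbkg, the scaffold subunit NEMO of the IKK complex, had 62.0, 55.9 and 58.1 CPM in sham against 49.3, 47.2 and 44.2 CPM in the reperfused group. Its groups did not overlap, and the log2 fold change was −0.32 ± 0.10 (SE; edgeR adjusted p = 0.190). Ikbke, an IKK-related kinase, had 0.573, 0.472 and 1.07 CPM in sham against 0.982, 1.34 and 1.16 CPM in the reperfused group, and sham replicate 3 lay among the latter (log2 fold change 0.71 ± 0.34, SE; edgeR adjusted p = 0.335).

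Adaptors and ubiquitin ligases upstream of IKK lay close to 0. Of 17 tested, 0 had an unadjusted p under 0.05 (edgeR), the median log2 fold change was 0.01, and the range was −0.19 to 0.39. Without reperfused replicate 2 there were 2 higher (Traf5 and Traf6, where 7.93% of rows were higher) and 1 lower (Ube2n). Without reperfused replicate 1 there was 1 lower (Birc2). The share of all rows lower was not computed for these fits, so both lower calls have no background beside them. The smallest p-values belonged to Birc2, a ubiquitin ligase, at 50.9, 53.2 and 50.3 CPM in sham against 49.2, 45.5 and 40.8 CPM in the reperfused group, and to Ube2n, which builds ubiquitin chains. Rnf31, the catalytic subunit of the linear ubiquitin ligase, had 14.0, 14.6 and 14.0 CPM in sham against 16.8, 16.1 and 15.7 CPM in the reperfused group. These 3 genes and Traf5, a signalling adaptor, had edgeR adjusted p-values from 0.387 to 0.428.

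Other brakes on the pathway also lay close to 0. Of 15 genes 13 were tested, Tnip3 and Zc3h12d having too few counts. None had an unadjusted p under 0.05 (edgeR), and the median log2 fold change was −0.01 with a range from −0.20 to 0.31. Cyld and Rnf11 were lower at that level without reperfused replicate 1, and Pdlim2 was lower without reperfused replicate 3. Zc3h12c was higher without reperfused replicate 2, where 7.93% of rows were. The share of all rows lower without reperfused replicate 1 or 3 was not computed, so the lower calls have no background beside them. Cyld, a deubiquitinase, had 173, 165 and 178 CPM in sham against 175, 144 and 130 CPM in the reperfused group. Rnf11 and Itch, which work with A20, had log2 fold changes of −0.16 ± 0.10 and −0.10 ± 0.10 (SE). Irak3, an inhibitor of Toll-like receptor signalling, had a log2 fold change of 0.31 ± 0.26 (SE).

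Known NF-kB target genes had a median log2 fold change of 0.78 over 19 of 20 genes tested, Nos2 having too few counts. That median fell to 0.33 over the 13 targets with a mean of at least 1 CPM (edgeR), so it leaned on sparse genes. At an unadjusted p under 0.05, 5 of the 19 were higher and 1 lower (edgeR), beside 8.73% and 6.90% of all rows. None passed an adjusted p of 0.05. Without sham replicate 2 these numbers were 12 (7.08% of rows were higher) and 1 of 20. Il1b, Cxcl1 and Cxcl2 then passed an adjusted p of 0.05 (edgeR), where 0.0799% of rows were called higher. Without reperfused replicate 1 the numbers were 1 (11.1% of rows were higher) and 1 of 20. Vcam1 then passed an adjusted p of 0.05 (edgeR), where 1057 of 40919 rows did. The share of all rows lower was not computed without sham replicate 2 or without reperfused replicate 1. The number higher was 2 without sham replicate 1 (5.89% of rows), 3 without sham replicate 3 (6.57%) and 3 without reperfused replicate 3 (6.08%). Cxcl2, a neutrophil chemokine, had 8, 54 and 10 counts in sham and 199, 144 and 71 in the reperfused group, a log2 fold change of 2.50 ± 0.76 (SE; edgeR adjusted p = 0.234). Sham replicate 2 was again the highest sham library. Sele, the endothelial adhesion molecule E-selectin, had 6, 15 and 1 counts in sham and 47, 20 and 16 in the reperfused group (log2 fold change 1.88 ± 0.68, SE). With so few sham counts, Cxcl2 and Sele passed the filter on low counts through the reperfused libraries, which by itself favours a higher call. Both were also higher at an unadjusted p under 0.05 (edgeR) with no filter.

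Gadd45b, a stress-response gene, had 9.84, 23.2 and 10.9 CPM in sham against 45.8, 22.6 and 36.8 CPM in the reperfused group, with sham replicate 2 above reperfused replicate 2 (log2 fold change 1.26 ± 0.44, SE). Vcam1, an adhesion molecule for leukocytes, was the 1 target lower at that level. It had 31.8, 23.8 and 30.6 CPM in sham against 19.5, 17.6 and 20.6 CPM in the reperfused group, with no overlap, and its adjusted p was 0.150 with edgeR and 0.0134 with DESeq2. The named targets thus differed in direction. Icam1, an adhesion molecule, showed how wide the sham group was, with 411, 998 and 125 counts in sham and 668, 738 and 326 in the reperfused group.

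The plot of list levels sets these sets side by side by library. In the feedback inhibitors the median difference from the sham mean was −0.26, 0.49 and −0.26 in sham replicates 1, 2 and 3 against 0.83, 0.51 and 0.55 in the reperfused group, so sham replicate 2 came close to the reperfused libraries. For the subunits it was −0.14, 0.20 and −0.06 in sham against 0.32, 0.14 and 0.40 in the reperfused group. Target genes had −0.27, 0.77 and −0.46 in sham against 0.90, 0.74 and 0.52 in the reperfused group. In the subunits and the target genes sham replicate 2 lay above at least 1 reperfused library.

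**Figure D4:**
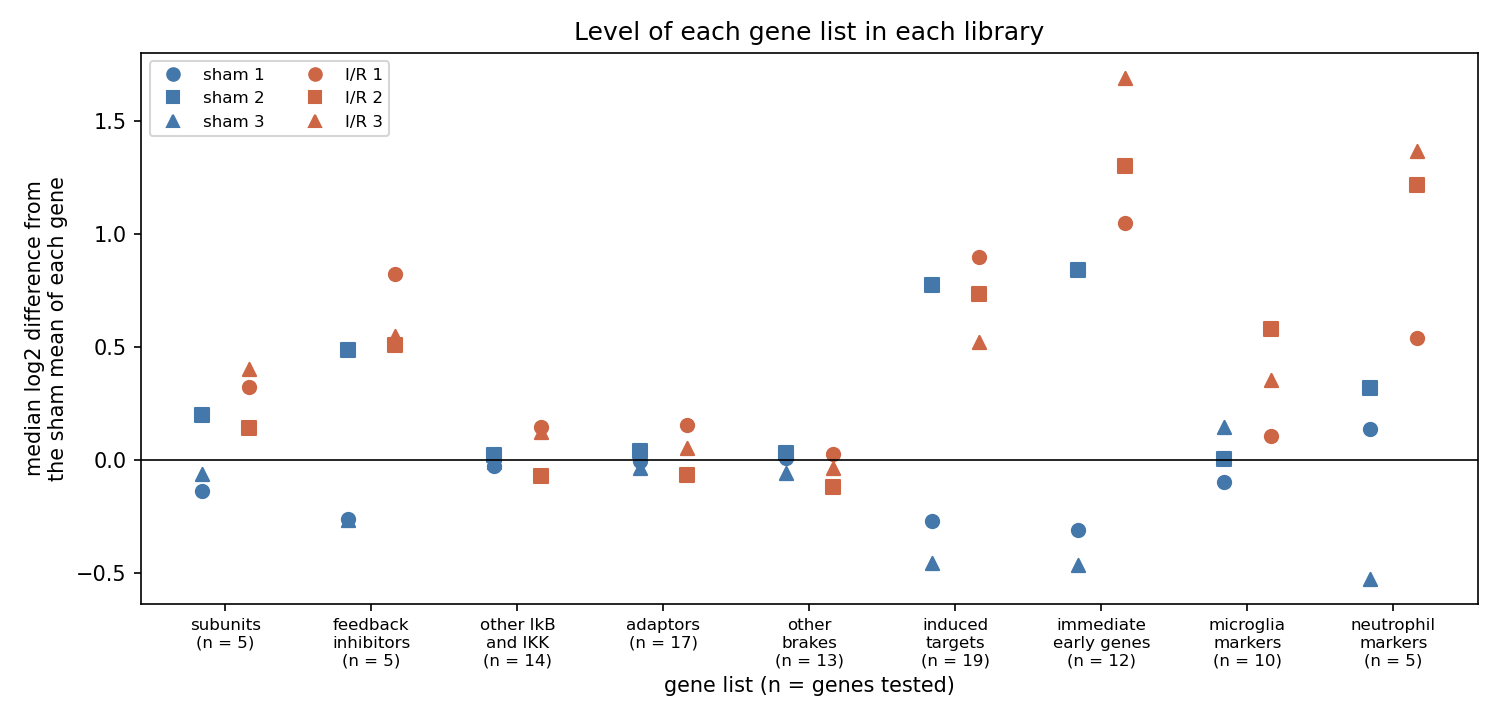
Median log2 difference of each gene list from the sham mean of its genes, in each library (blue sham, orange I/R, symbols mark the replicate number, n is the number of genes tested). Sham replicate 2 lies near the I/R libraries for feedback inhibitors (0.49) and targets (0.77), while adaptors and other brakes lie between −0.12 and 0.15 in all libraries.

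Markers of other cell types moved with the groups to differing degrees, and their part in the results was not tested. At an unadjusted p under 0.05, 8.73% of all rows were higher and 6.90% lower (edgeR), and with all libraries no marker passed an adjusted p of 0.05 (edgeR). The share higher was 5.89%, 7.08% and 6.57% without sham replicates 1, 2 and 3. It was 11.1%, 7.93% and 6.08% without reperfused replicates 1, 2 and 3. The share of all rows lower was not computed for the fits without a reperfused library. Counts of lower markers in those fits therefore have no background beside them. DESeq2 called Cx3cr1, Sall1, S100a8 and S100a9 as higher and Gjb6 as lower, where 1.80% of rows were called. Without reperfused replicate 1, Cx3cr1, S100a8, S100a9, Gjb6 and Aldh1l1 passed an adjusted p of 0.05 (edgeR), where 1057 of 40919 rows did. Gjb6 also passed with no filter, where 77 of 54371 rows did (edgeR). The summed level of 9 matched neutrophil markers was 5.11 to 7.45 CPM in sham against 9.32 to 15.4 CPM in the reperfused group. Of these, 4 of the 5 tested had an unadjusted p under 0.05, all higher (edgeR), while Elane held 1 count in sham replicate 3 and 0 in the other libraries and Camp at most 2 counts in any library. Without reperfused replicate 3 the number higher was 2 of 5. Only 3 neutrophil markers could be tested at a mean of at least 1 CPM. Rows this sparse can pass the filter on low counts through the reperfused libraries, which by itself favours a higher call. The neutrophil medians in reperfused replicates 1, 2 and 3 were 0.54, 1.22 and 1.37. The 10 microglia markers summed to 203 to 219 CPM in sham against 214 to 267 CPM in the reperfused group, with 4 of 10 higher at an unadjusted p under 0.05, 8 without reperfused replicate 1 and 2 without reperfused replicate 2. The 10 endothelial markers summed to 216 to 222 CPM and 212 to 243 CPM, with 2 of 10 higher, 4 without sham replicate 2 and 0 without sham replicate 1 or reperfused replicate 3. Astrocyte markers summed to 3677 to 3857 CPM and 3293 to 3682 CPM, with 2 of 8 lower and 4 without reperfused replicate 1 or 3. Neuron markers summed to 3418 to 3486 CPM and 3052 to 3607 CPM, with 1 of 7 lower. Without reperfused replicate 2 these were 2 lower and 1 higher, and without reperfused replicate 3, 1 lower and 2 higher.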

How the data were processed

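Brain RNA was sequenced as read pairs after removal of ribosomal RNA, per the labels' protocols, and the genome build was mm10, per the submitters' processing notes. No source used here names the aligner, counter, annotation or strand setting. The deposited counts are raw whole numbers per row. The deposited RPKM (reads per kilobase, scaled to the column total) could be recomputed from counts and row lengths for 100% of values, within a relative tolerance of 0.001. Row lengths in bases (another value, as deposited) stand beside the counts. The authors' own test results were deposited separately, with group means of RPKM, log2 fold changes (ratios of these means), p-values and q-values.

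Counts of 56826 rows, 33353 of them cDNA clones, were fitted with edgeR 4.0.16 (R 4.3.3), TMM, filterByExpr and the robust quasi-likelihood test, two-sided, without a block. P-values were adjusted over 40170 rows. The SE is the fold change divided by the square root of F. Library medians used log2 values with 0.5 added to each count. The biological coefficient of variation was 13.4% in sham and 20.5% in ischemia/reperfusion. Replicates differed by more than sampling noise. A floor of 3 counts was 0.0601 to 0.0648 CPM and covers counting error only.

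The members and gene lists were chosen with earlier results of these data known. All 10 members were named, and of each pathway list the 4 genes with the smallest p; Icam1, further list genes and markers called under DESeq2 or with a library left out, the targets called without sham replicate 2, and overlapping rows on the opposite strand were named after their values were seen. Of 123 other list genes 122 matched a row, 1 by an older symbol. Alternatives were RLE and upper-quartile factors, other filters, DESeq2 1.42.0, limma-voom (limma 3.58.1), gene rows alone, edgeR without robust estimation, the replicate number as a block and leaving out each library. DESeq2 gave no adjusted p for 7793 rows. The fits were tested on simulated data. No protein sequences were used here.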

Additional observations from a re-analysis of the deposited data

How the results depend on the processing

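No member passed an adjusted p of 0.05 under any alternative run, and Bcl3 alone changed direction, to −0.37 without ischemia/reperfusion replicate 1 (0.77 without sham replicate 2). The smallest adjusted p of any member was 0.0693 (Nfkbiz, DESeq2). The number of members at an unadjusted p under 0.05 was 3, stayed at 3 or 4 under the other tools, factors and filters, and ranged from 2 to 6 when 1 library was left out. The median of the subunits was 0.19 to 0.38 and that of the inhibitors 0.36 to 0.82 over all alternatives. Over all rows edgeR called 1, against 2 with upper-quartile factors, 77 with no filter, 0 with a mean of at least 1 CPM, 584 with DESeq2, 4 with limma-voom, 0 with gene rows alone, 4 without robust estimation and 0 to 1057 when 1 library was left out. The cause was not tested. Target genes higher at an unadjusted p under 0.05 numbered 5, against 2 with no filter and 9 with limma-voom; 12 higher and 1 lower, 13 in all, were found without sham replicate 2, a setting chosen for this list after seeing the data. Counting CPM on library totals without TMM, chosen after seeing the data, put 4 members (14.0% of rows) in place of 2 above sham without overlap, adding Rel and Nfkb1. With the replicate number as a block 0 rows were called and 4 members had an unadjusted p under 0.05 (edgeR). Same-numbered libraries correlated at −0.07, 0.03 and 0.11. Sham replicates 2 and 3 correlated best with their own number and sham replicate 1 with another. Such weak values show no clear pairing and cannot exclude one. Bcl3 and Zc3h12a had under 1 CPM on average and could not be fitted at a mean of at least 1 CPM. For Bcl3 the SDs between libraries, 0.290 and 0.458 CPM, exceeded the 0.108 and 0.122 CPM of counting error. What limits the Bcl3 result was not tested.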

Other observations

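Inside Rel, on the opposite strand, the cDNA clone row fantom3_B130044B01 (chromosome 11 from 23752639 to 23754693, mm10) held 5, 14 and 6 counts in sham and 24, 14 and 25 in ischemia/reperfusion. Its log2 fold change was 1.32 ± 0.51 (SE), with an adjusted p of 0.260 (edgeR), and its RPKM in sham was 0.157 times that of Rel. The Nfkb2 row overlaps 2 clone rows on the opposite strand at its start, fantom3_4833438C02 and fantom3_F830019M12, with log2 fold changes of −0.08 ± 0.28 and 0.0015 ± 0.28 (SE). The row fantom3_G430121H02, on the opposite strand, has a length of 1298 bases, and its outer coordinates overlap the end of Nfkb1 by 20838 bases. Where its counted bases lie within those coordinates was not determined. This clone row averaged 35.6 ± 3.46 CPM over the sham libraries and 33.8 ± 3.10 CPM over the others (SD, n = 3 each). Its log2 fold change was −0.07 ± 0.11 (SE).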
